A study of Saccharomyces cerevisiae with 18 samples.

Results

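Ribosome biogenesis factors are the proteins that turn the precursor ribosomal RNA into ribosomal subunits, and 56 of their genes, of 7127 identifiers counted, were followed here in *Saccharomyces cerevisiae*. The genes were listed by name, as nucleolar and pre-ribosome assembly factors, at a time when earlier results of these data were known. RNA-seq was carried out on *snf2Δ*, *snf5Δ* and wild type (wt) cells, each after 30 min in the rich medium YPD with 3 mM cysteine (YPD+Cys) and in YPD alone. All strains were BY4741, a *MATa* laboratory strain with deletions in *HIS3*, *LEU2*, *MET17* and *URA3*, grown in log phase at 30 degrees. Each of the 6 groups of strain and medium had 3 libraries of ribosomal RNA-depleted total RNA. Snf2 is the ATPase of Swi-Snf, a complex that remodels chromatin, and Snf5 is one of its core subunits, so the series asks which transcripts depend on the complex in rich medium and which of these respond to cysteine. The labels do not say whether the replicates came from separate cultures, and the p-values measure the spread between these libraries.

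In the nucleolus, RNA polymerase I makes a long precursor that carries the ribosomal RNAs of both subunits. Small nucleolar ribonucleoproteins (snoRNPs) modify it, the box C/D class by methylation and the box H/ACA class by turning uridine into pseudouridine. The small subunit processome, built from the UTP-A, UTP-B and Mpp10 subcomplexes and many single factors, assembles on the growing precursor and prepares the cleavages that release the 40S precursor, while another set of factors builds the 60S precursor. In budding yeast the genes of this pathway are known as the ribosome biogenesis regulon, whose transcription follows growth and nutrient signals through 2 promoter elements, PAC and RRPE. The repressors Dot6 and Tod6 bind PAC and Stb3 binds RRPE, and the kinase Sch9 restrains these repressors.

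The letters of both elements were looked for in the 300 bases before each start codon of the R64 reference genome, whose sequence is that of sacCer3, the build the authors used. PAC was searched as GATGAG and RRPE as AAAAATTTT, on both strands. PAC letters were present in 53 of the 56 windows (94.6%), against 1148 of 6007 windows of all protein-coding genes (19.1%). RRPE letters were present in 41 of the 56 (73.2%), against 441 of 6007 (7.34%). Both stood in 39 of the 56 windows (69.6%) and in 220 of 6007 (3.66%), and *UTP22* was the single gene of the 56 with neither. A match is a description of the letters and was not tested as a binding site.

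The stretches below, 80 bases each and 5′ to 3′ on the strand of the gene, show how the elements sit before 6 genes that fell in *snf2Δ* cells in both media (*NSR1*, *NOP1*, *NOP56*, *GAR1*, *CBF5* and *NHP2*) and, for contrast, before *UTP10* and *ENP1*, which did not pass the test in any comparison. Capitals mark PAC and RRPE letters on either strand, so PAC appears as GATGAG or CTCATC. The stretches lie, in the same order, at chrVII:807801-807880 (minus strand), chrIV:427112-427191 (plus), chrXII:545942-546021 (plus), chrVIII:283388-283467 (minus), chrXII:505931-506010 (plus), chrIV:87362-87441 (plus), chrX:217376-217455 (minus) and chrII:714541-714620 (minus), all upstream of the coding sequence.
NSR1: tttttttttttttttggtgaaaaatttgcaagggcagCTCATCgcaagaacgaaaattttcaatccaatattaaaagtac
NOP1: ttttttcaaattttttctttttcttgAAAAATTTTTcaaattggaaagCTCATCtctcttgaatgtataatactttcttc
NOP56: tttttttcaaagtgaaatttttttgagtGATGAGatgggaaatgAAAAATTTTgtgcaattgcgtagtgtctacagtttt
GAR1: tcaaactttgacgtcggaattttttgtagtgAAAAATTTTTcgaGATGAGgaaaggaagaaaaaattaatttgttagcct
CBF5: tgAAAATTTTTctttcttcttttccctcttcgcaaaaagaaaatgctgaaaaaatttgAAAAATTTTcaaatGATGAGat
NHP2: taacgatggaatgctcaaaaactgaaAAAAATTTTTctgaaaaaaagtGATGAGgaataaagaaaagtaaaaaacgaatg
UTP10: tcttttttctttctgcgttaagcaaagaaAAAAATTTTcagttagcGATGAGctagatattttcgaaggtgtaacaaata
ENP1: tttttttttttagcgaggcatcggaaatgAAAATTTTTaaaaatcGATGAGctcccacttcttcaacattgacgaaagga

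Such letters stood before genes that fell and before genes that did not. *NSR1*, which fell in both mutants in both media, had PAC letters 187 bases before its start codon and no exact RRPE match. *UTP10* had PAC letters 100 bases and RRPE letters 117 bases before its start codon. The 39 genes with both elements had a median log2 fold change of -0.32 in *snf2Δ* against wt cells in YPD, and the 14 with PAC alone one of -0.26. The 2 with RRPE alone had a median of -0.19, and *UTP22*, with neither, had -0.38. In YPD+Cys these values were -0.49, -0.35, -0.30 and -0.37. Both elements stood before 6 of the 7 snoRNP protein genes, so elements and role are not separated in these medians.

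**Figure D1:**
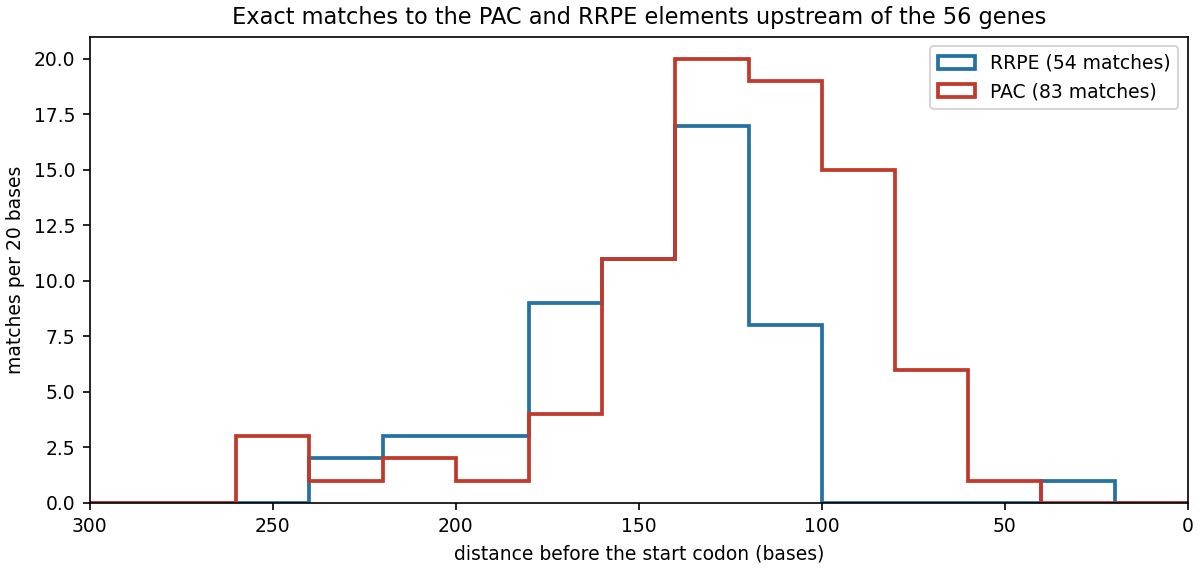
Distance in bases from the start codon (horizontal axis) of every exact match to the PAC and RRPE letters on either strand in the 300 bases upstream of the 56 genes, as matches per 20 bases (vertical axis). PAC letters were found before 53 genes and RRPE letters before 41, and overlapping matches on opposite strands count separately.

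The libraries held 1329986 to 4845830 counts in genes, of which the 56 genes took 0.484% to 1.11%. All 56 passed the filter on low counts, with a lowest count of 18 in any library. The deleted genes matched the labels. *SNF2* lay between 1.23 and 5.22 CPM (read counts scaled to the TMM size of each library) in *snf2Δ* libraries, against 187 to 253 CPM in wt, and *SNF5* between 0 and 0.274 CPM in *snf5Δ* libraries, against 45.5 to 57.8 CPM in wt. *LEU2*, *URA3* and *MET17* had 0 counts in every library, and *HIS3*, of which the strain's allele lacks a part, had 14.1 to 32.0 CPM. Reads with several places in the genome, which include ribosomal RNA, made up 53.5% and 44.6% of reads in the *snf2Δ* YPD libraries 2 and 3 and 71.4% in the *snf5Δ* YPD library 3, against 3.02% to 28.6% in the other libraries. Because whole cultures were measured, fewer cells with a transcript and less of it per cell cannot be told apart.

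Levels per length differed widely between roles. As CPM per kilobase over all 18 libraries, the 3 box C/D proteins lay between 104 (*NOP58*) and 309.7 (*NOP56*), the nucleolin-like protein *NSR1* at 262, and the box H/ACA proteins between 113 (*GAR1*) and 841 (*NOP10*). The UTP-A genes lay between 40.2 and 66.3, the UTP-B genes between 27.5 and 52.6 and the Mpp10 complex between 40.1 and 43.8. The 60S factors ranged between 28.1 (*RPF1*) and 179 (*TIF6*). The level of *NOP10*, whose coding sequence is 177 bases long, is uncertain, since its expected count from RSEM was 0.0745 of its count from STAR, against a median ratio of 0.859 over the 56 genes.

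Transcripts of *NSR1* were lower in both mutants in both media, and those of most snoRNP proteins were lower in *snf2Δ* cells in both media and in part in *snf5Δ* cells in YPD. No gene of the UTP-A, UTP-B or Mpp10 subcomplexes passed the test in either mutant. In YPD, 7 of the 56 genes fell in *snf2Δ* against wt cells and none rose (edgeR quasi-likelihood test, adjusted p under 0.05). That is 12.5% of them, near the 11.8% of all 5757 genes tested that fell. In *snf5Δ* cells in YPD 5 fell (8.93%), below the 15.0% of all genes that fell. In YPD+Cys 8 fell in *snf2Δ* cells (14.3%), against 11.6% of all genes, and 1 fell in *snf5Δ* cells (1.79%), against 11.3%. None of these shares stood far above the background. The libraries of mutant and wt cells did not overlap, mutant below, for 9, 7, 10 and 4 of the 56 genes in the order *snf2Δ* and *snf5Δ* in YPD, then *snf2Δ* and *snf5Δ* in YPD+Cys, against 17.4%, 21.1%, 17.2% and 19.3% of all genes. The share of all genes that rose was 7.89%, 12.0%, 7.73% and 9.73% in the same 4 comparisons, where none of the 56 rose.

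Of the 10 genes called in any of these 4 comparisons, 8 were the snoRNP proteins and *NSR1*, which are 8 of the 56, and the others were *TIF6* and *KRR1*. The snoRNP genes were also measured more precisely. In *snf2Δ* cells in YPD their median log2 fold change was -0.60 at a median standard error of 0.20. Over the 48 genes outside them and *NSR1* these were -0.28 and 0.29, so a change of a given size passed less readily there. *NSR1* was the single gene called in both mutants in both media. The fold changes of most genes leaned the same way without passing the test. Over the 56 genes the median log2 fold change was -0.30 in *snf2Δ* and -0.16 in *snf5Δ* cells in YPD, against 0.02 and -0.01 over all genes tested. With cysteine it was -0.45 and -0.12, against 0.02 and -0.02. The log2 fold change was below 0 for 52, 42, 55 and 44 of the 56 genes in the same order, against 48.4%, 50.8%, 48.0% and 52.2% of all genes. When libraries were scaled by their totals in place of TMM, the median of all genes moved to 0.26, 0.34, 0.18 and 0.23, and the median of the 56 to -0.04, 0.20, -0.27 and 0.13, so that in *snf5Δ* cells its sign turned. The median of the 56 also turned on single libraries. In *snf2Δ* cells in YPD it lay between -0.66 without the *snf2Δ* library 3 and -0.12 without the *snf2Δ* library 1, and in YPD+Cys between -0.80 and -0.26 without the same libraries. In *snf5Δ* cells in YPD it lay between -0.31 without the *snf5Δ* library 3 and -0.06 without the wt library 1. In *snf5Δ* cells in YPD+Cys it lay between -0.28 without the *snf5Δ* library 3 and 0.02 without the wt library 3, where its sign turned and 26 of the 56 genes were below 0.

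**Figure D2:**
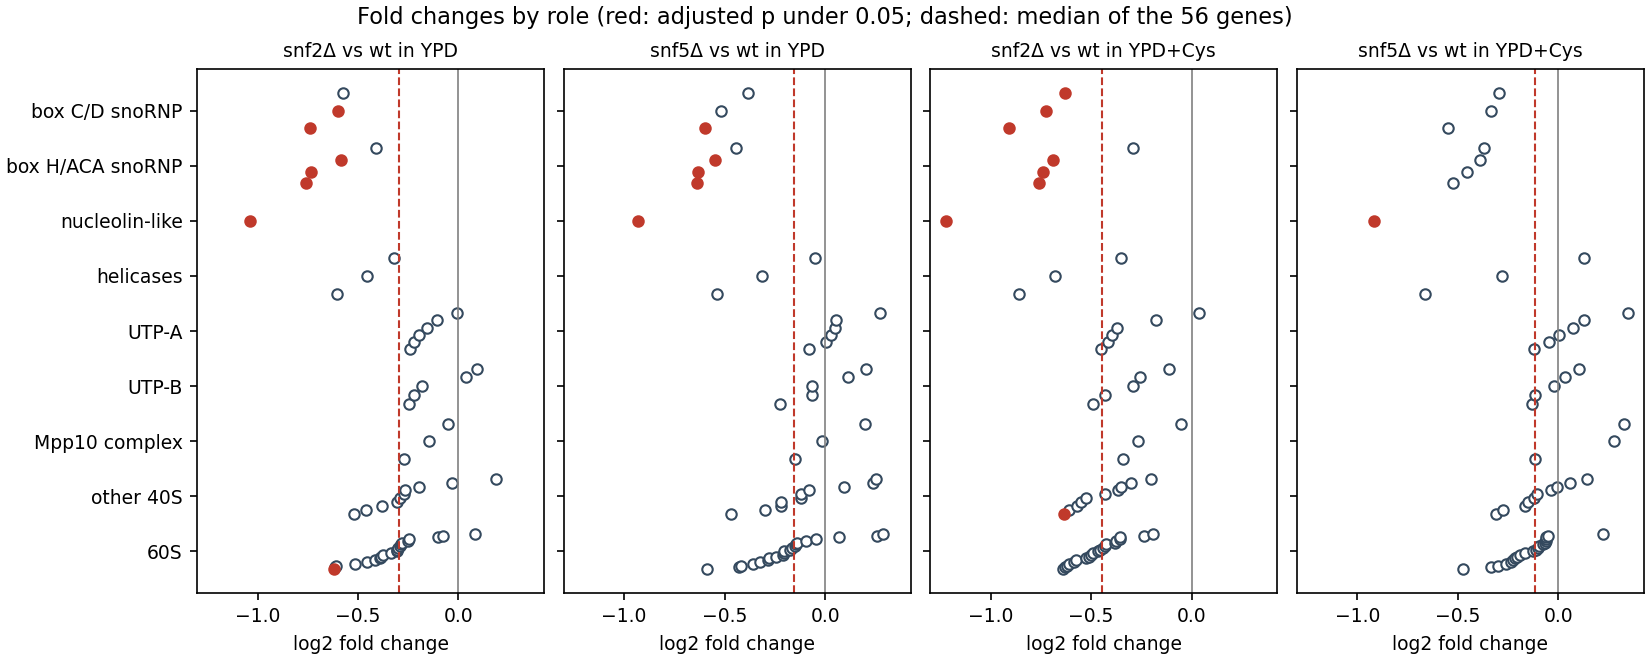
Log2 fold change of each of the 56 genes in mutant over wt cells (horizontal axis) by role (vertical axis), with filled red points for adjusted p under 0.05 and a dashed line at the median of the 56. The called genes sit in the snoRNP and *NSR1* rows, apart from *TIF6* and *KRR1*, and the medians are -0.30, -0.16, -0.45 and -0.12 in the order of the panels.

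*NSR1* (YGR159C, chrVII:806412-807656), whose protein resembles nucleolin of animal cells and is needed for normal processing of the precursor, changed most. It had 186, 234 and 336 CPM in *snf2Δ* and 211, 263 and 342 CPM in *snf5Δ* libraries in YPD, against 452, 422 and 673 CPM in wt. In YPD+Cys it had 141, 198 and 262 CPM in *snf2Δ* and 176, 271 and 294 CPM in *snf5Δ* libraries, against 358, 393 and 652 CPM in wt. Every mutant library lay below every wt library of its medium. The fall in *snf2Δ* cells was 2.05-fold in YPD (log2 -1.03 ± 0.30 SE, edgeR adjusted p = 0.0219) and 2.33-fold in YPD+Cys (log2 -1.22 ± 0.30, adjusted p = 0.00885). In *snf5Δ* cells it was 1.90-fold in YPD (adjusted p = 0.0299) and 1.89-fold in YPD+Cys (adjusted p = 0.0377). The difference between *snf5Δ* and *snf2Δ* cells had a 95% interval of -0.53 to 0.74 in YPD and of -0.33 to 0.93 in YPD+Cys on the log2 scale.

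The 3 core proteins of box C/D snoRNPs are Nop1, the methyltransferase known as fibrillarin in animals, and Nop56 and Nop58, which hold the guide RNA and the enzyme together. *NOP1* (YDL014W, chrIV:427364-428347) had 124, 145 and 162 CPM in *snf2Δ* and 133, 169 and 201 CPM in *snf5Δ* libraries in YPD, against 236, 197 and 285 CPM in wt. With cysteine it had 89.2, 116 and 147 CPM in *snf2Δ* and 125, 169 and 159 CPM in *snf5Δ* libraries, against 177, 201 and 284 CPM in wt. The *snf2Δ* groups lay wholly below wt, and *NOP1* fell 1.67-fold in YPD (log2 -0.74 ± 0.22 SE, edgeR adjusted p = 0.0241) and 1.88-fold in YPD+Cys (log2 -0.91 ± 0.22, adjusted p = 0.00743). In *snf5Δ* cells its log2 fold changes of -0.52 and -0.55 missed the threshold (adjusted p = 0.0883 and 0.0833).

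*NOP56* (YLR197W, chrXII:546097-547611) had 360, 452 and 467 CPM in *snf2Δ* and 359, 462 and 457 CPM in *snf5Δ* libraries in YPD, against 547, 634 and 753 CPM in wt. It fell 1.51-fold in each mutant in YPD (edgeR adjusted p = 0.0304 in *snf2Δ* and 0.0237 in *snf5Δ* cells). After cysteine it had 276, 382 and 380 CPM in *snf2Δ* and 373, 449 and 486 CPM in *snf5Δ* libraries, against 445, 489 and 673 CPM in wt. The fall in *snf2Δ* cells was 1.55-fold (adjusted p = 0.0245), while the *snf5Δ* libraries overlapped wt (adjusted p = 0.282). Of the 4 comparisons of mutant and wt cells, *NOP58* (YOR310C) passed the test in *snf2Δ* cells in YPD+Cys alone, with 88.3, 108 and 150 CPM against 159, 170 and 244 CPM in wt (log2 -0.73 ± 0.24, adjusted p = 0.0451). In YPD its 106, 121 and 186 CPM in *snf2Δ* libraries overlapped the 205, 169 and 240 CPM of wt.

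The box H/ACA snoRNP consists of Cbf5, the pseudouridine synthase known as dyskerin in humans, and its partners Gar1, Nhp2 and Nop10. *CBF5* (YLR175W, chrXII:506134-507585) had 153, 173 and 197 CPM in *snf2Δ* and 184, 198 and 223 CPM in *snf5Δ* libraries in YPD, against 290, 237 and 354 CPM in wt. It fell 1.69-fold in *snf2Δ* cells (log2 -0.76 ± 0.20 SE, edgeR adjusted p = 0.0121) and 1.46-fold in *snf5Δ* cells (adjusted p = 0.0492). In YPD+Cys it had 133, 171 and 206 CPM in *snf2Δ* and 172, 216 and 212 CPM in *snf5Δ* libraries, against 235, 229 and 358 CPM in wt. Neither mutant overlapped wt there, and the fall passed the test in *snf2Δ* (1.61-fold, adjusted p = 0.0208) and not in *snf5Δ* cells (adjusted p = 0.113).

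*GAR1* (YHR089C, chrVIII:282681-283298) had 55.6, 61.7 and 67.7 CPM in *snf2Δ* and 50.4, 65.2 and 85.6 CPM in *snf5Δ* libraries in YPD, against 102, 86.2 and 119 CPM in wt. With cysteine it had 38.6, 49.0 and 58.1 CPM in *snf2Δ* and 47.2, 66.9 and 57.3 CPM in *snf5Δ* libraries, against 61.0, 79.2 and 107 CPM in wt. It fell 1.66-fold in *snf2Δ* (edgeR adjusted p = 0.0271) and 1.55-fold in *snf5Δ* cells in YPD (adjusted p = 0.0443) and 1.69-fold in *snf2Δ* cells in YPD+Cys (adjusted p = 0.0224). The *snf5Δ* libraries in YPD+Cys overlapped wt.

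*NHP2* (YDL208W, chrIV:87512-87982) had 77.8, 92.1 and 116 CPM in *snf2Δ* and 94.9, 106 and 114 CPM in *snf5Δ* libraries in YPD, against 138, 129 and 160 CPM in wt. Its YPD+Cys values were 65.8, 83.3 and 88.0 CPM in *snf2Δ* and 84.9, 102 and 119 CPM in *snf5Δ* libraries, against 118, 116 and 162 CPM in wt. It fell 1.50-fold in YPD (edgeR adjusted p = 0.0264) and 1.67-fold in YPD+Cys (adjusted p = 0.00676) in *snf2Δ* cells, and its fall in *snf5Δ* cells missed the threshold (adjusted p = 0.0725 and 0.141). *NOP10* (YHR072W-A, chrVIII:241664-241840), by contrast, passed the test in *snf5Δ* cells in YPD, with 106, 134 and 151 CPM against 176, 211 and 219 CPM in wt (log2 -0.64 ± 0.18, adjusted p = 0.0161). In *snf2Δ* cells it had 144, 153 and 160 CPM in YPD, below every wt library, with a log2 fold change of -0.41 that missed the threshold (adjusted p = 0.131). With RSEM's expected counts the call on *NOP10* was lost.

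**Figure D3:**
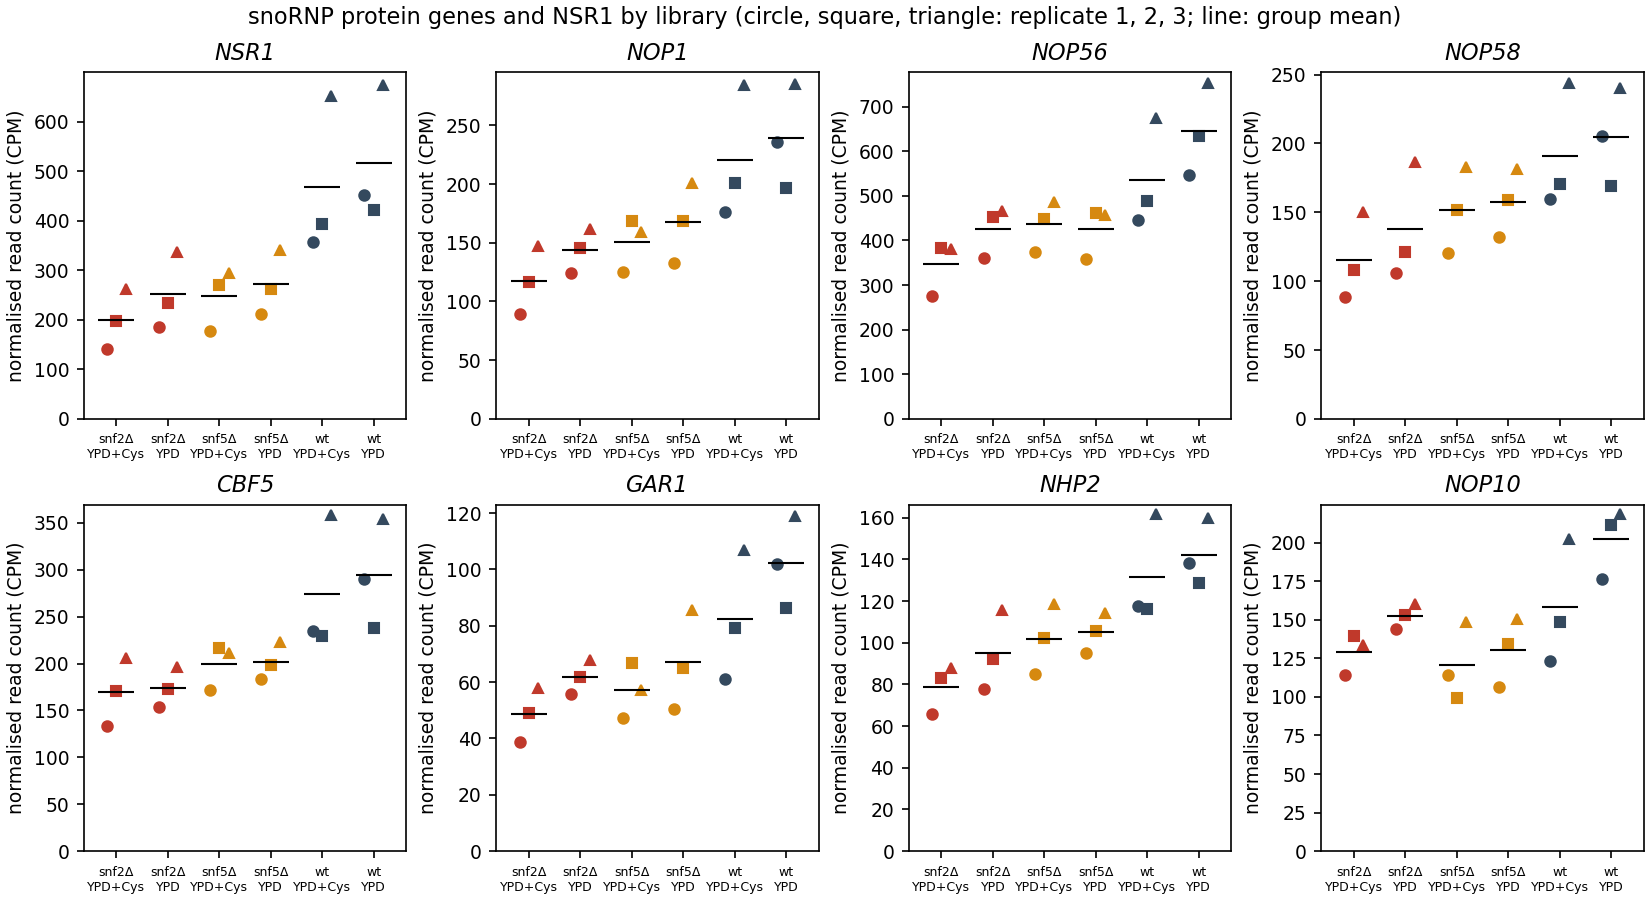
Normalised read count in CPM (vertical axis, from 0) of *NSR1*, the 3 box C/D and the 4 box H/ACA snoRNP protein genes in each library, by group (horizontal axis), with a line at each group's mean and a symbol for each replicate number. *NSR1* lies between 186 and 336 CPM in *snf2Δ* libraries in YPD and between 422 and 673 CPM in wt, and the *snf2Δ* and wt points of *NOP1*, *CBF5*, *GAR1* and *NHP2* do not overlap in either medium.

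The remaining 48 genes held 1 call in each of the *snf2Δ* comparisons and 0 in the *snf5Δ* comparisons (edgeR), where 3 of the 48 in YPD and 0 in YPD+Cys had an unadjusted p under 0.05. *TIF6* (YPR016C), an anti-association factor that keeps 60S particles from joining 40S subunits, had 91.5, 112 and 130 CPM in *snf2Δ* libraries in YPD, against 162, 139 and 212 CPM in wt (log2 -0.62 ± 0.19, edgeR adjusted p = 0.0269). *KRR1* (YCL059C), a processome factor, had 40.4, 54.8 and 59.2 CPM in *snf2Δ* libraries in YPD+Cys, against 64.0, 78.6 and 97.6 CPM in wt (log2 -0.64 ± 0.22, adjusted p = 0.0489). Neither gene passed the test in the other 3 comparisons of mutant and wt cells.

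The 3 DEAD-box RNA helicases had log2 fold changes below 0 in *snf2Δ* cells in both media and did not pass the test. *DBP2* had 137, 153 and 276 CPM in *snf2Δ* libraries in YPD+Cys, against 277, 286 and 463 CPM in wt, with a log2 fold change of -0.86 ± 0.33 (edgeR adjusted p = 0.078). The groups only just failed to overlap. *DBP3*, which acts on the 60S precursor, had 85.0, 91.8 and 144 CPM there, against 145, 138 and 233 CPM in wt (adjusted p = 0.0864).

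No gene of the processome subcomplexes was called in mutant against wt cells. In *snf2Δ* cells in YPD the median log2 fold change was -0.18 over the 6 UTP-A genes, -0.18 over the 5 UTP-B genes and -0.15 over the 3 Mpp10 genes. In *snf5Δ* cells it was 0.04, -0.06 and -0.01. With cysteine the *snf2Δ* medians of the same subcomplexes lay lower, at -0.38, -0.29 and -0.27, and those of *snf5Δ* cells at 0.04, -0.02 and 0.28. *UTP10*, a subunit of UTP-A, had 255, 229 and 490 CPM in *snf2Δ* and 371, 338 and 450 CPM in *snf5Δ* libraries in YPD, against 438, 291 and 386 CPM in wt. The *snf2Δ* libraries lay both below and above those of wt. *UTP5* of the same subcomplex had 43.1, 43.7 and 127 CPM in *snf2Δ* libraries in YPD, against 104, 51.2 and 73.9 CPM in wt, so that its 3 *snf2Δ* libraries spanned the whole wt range.

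*UTP13* of UTP-B had 98.5, 103 and 188 CPM in *snf2Δ* libraries, against 152, 130 and 170 CPM in wt, and *UTP6*, the gene with the lowest level per length, had 25.4, 24.2 and 65.3 CPM against 49.2, 27.6 and 29.9 CPM in wt. In the Mpp10 complex, *IMP4* had 33.3, 25.6 and 49.2 CPM against 51.8, 28.5 and 51.0 CPM, and *IMP3* had 16.5, 8.54 and 32.8 CPM against 29.3, 15.7 and 15.2 CPM. In each of these the third *snf2Δ* library was the highest of its group, and the groups overlapped.

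The other 40S factors had a median log2 fold change of -0.28 in *snf2Δ* and -0.12 in *snf5Δ* cells in YPD, and the 21 60S factors one of -0.31 and -0.20. *RRP5*, needed for both subunits, had 316, 321 and 506 CPM in *snf2Δ* and 500.3, 534 and 587 CPM in *snf5Δ* libraries in YPD+Cys, against 565, 472 and 709 CPM in wt. Its log2 fold change in *snf2Δ* cells was -0.61 ± 0.22 and missed the threshold (edgeR adjusted p = 0.0601). *NOC4* went with the opposite sign in YPD, with 38.2, 51.2 and 93.6 CPM in *snf2Δ* libraries, against 61.2, 46.1 and 52.1 CPM in wt (log2 0.19 ± 0.33, adjusted p = 0.745). *MAK16*, a 60S factor, had 14.4, 15.2 and 43.9 CPM in *snf2Δ* libraries, against 32.6, 19.9 and 23.7 CPM in wt, and these overlapped too. *SSF1*, whose counts leave out reads that fit its near-identical paralog *SSF2* equally well, had 27.9, 26.6 and 91.1 CPM in *snf2Δ* libraries, against 69.4, 33.3 and 52.5 CPM in wt. Its within-group spread was the widest of the 56.

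The 56 genes moved together from library to library, also within groups. The median within-group SD of log2 CPM over the 56 was 0.378, against 0.223 over all genes tested, and each of the 56 lay above 0.223. After the group means were removed, the correlation over the 18 libraries was above 0 in all 1540 pairs of the 56 genes, with a median of 0.857 and a lowest value of 0.148. It was above 0.5 in 92.5% of these pairs, against 12.3% of pairs of all genes. The points share library and depth, and the values are given as a description. *NOP10* had the lowest median correlation with the others, 0.456, and *NOP56* the next, 0.594, and *SSF1* the largest SD, 0.673.

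The third library was the highest of its group in all 6 groups. The median of the 56 genes, as the difference of log2(CPM + 1) from the mean of the 18 libraries, was -0.43, -0.34 and 0.46 in *snf2Δ* and -0.14, 0.01 and 0.39 in *snf5Δ* libraries in YPD, against 0.35, -0.05 and 0.43 in wt. In YPD+Cys it was -0.69, -0.58 and 0.18 in *snf2Δ* and -0.25, -0.03 and 0.31 in *snf5Δ* libraries, against 0.12, -0.08 and 0.41 in wt. The third *snf2Δ* library in YPD thus stood above every wt library for the 56 genes as a whole. Over the 7 snoRNP genes alone it stood at 0.03, below the 0.41, 0.28 and 0.72 of the wt libraries. That library had 44.6% of its reads in several places, whereas the third library in YPD+Cys, at 14.0%, was also the highest of its group, and the part of such reads in the spread was not tested.

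**Figure D4:**
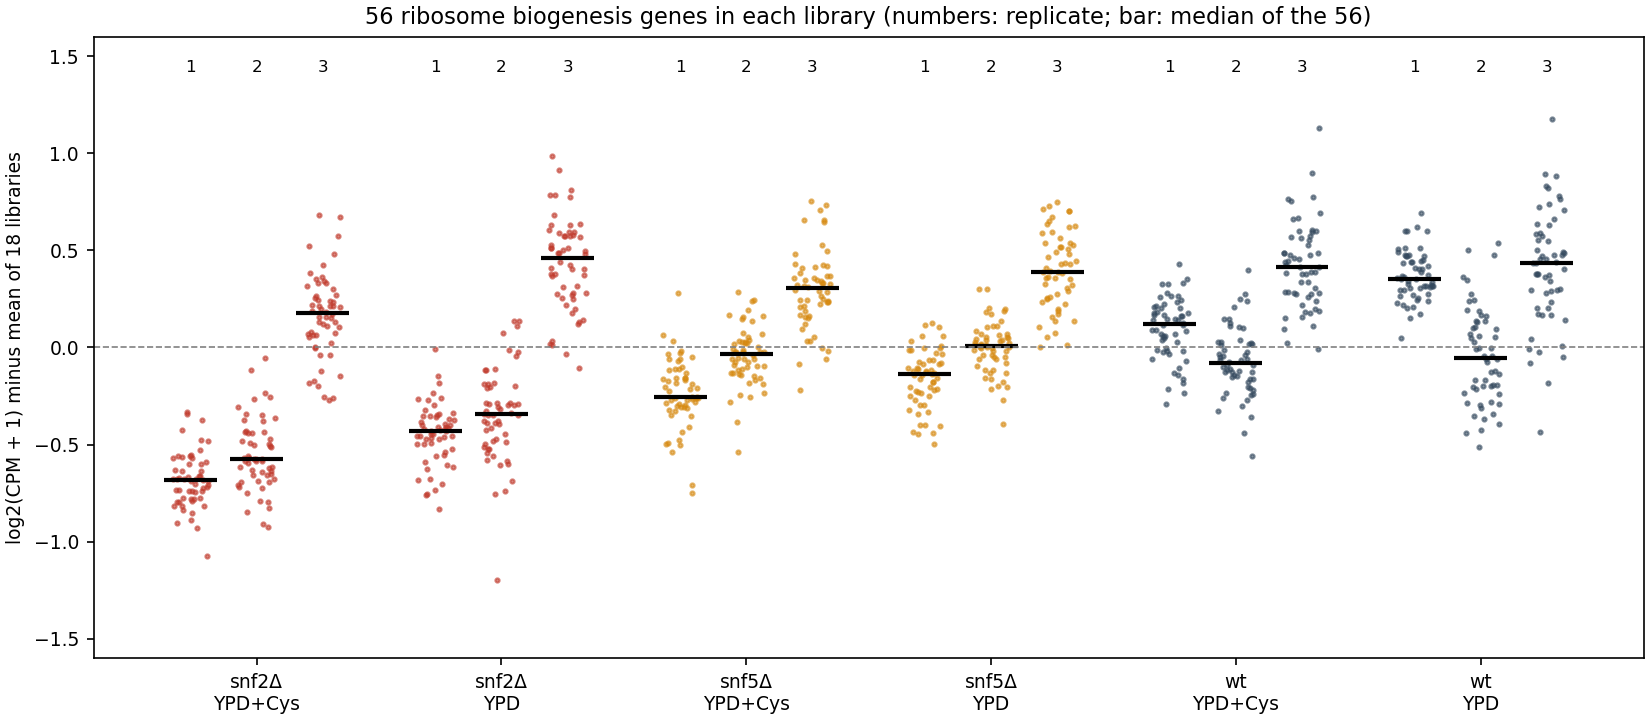
Log2(CPM + 1) of each of the 56 genes minus its mean over the 18 libraries (vertical axis), by group and replicate number (horizontal axis), with a bar at the median of the 56. The bar of replicate 3 is the highest in every group, between 0.18 in *snf2Δ* YPD+Cys and 0.46 in *snf2Δ* YPD.

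The counts of calls turned on single libraries. In *snf2Δ* against wt cells in YPD, the 7 calls became 11 without the *snf2Δ* library 3 (then 10.7% of all genes fell) and 0 without the *snf2Δ* library 1 or the wt library 3. They became 1 without the *snf2Δ* library 2, 3 without the wt library 1 and 6 without the wt library 2. In YPD+Cys the 8 calls became 22 without the *snf2Δ* library 3 (then 10.8% of all genes fell), 4 without the *snf2Δ* library 2 and 0 without the *snf2Δ* library 1 or the wt library 3. In *snf5Δ* cells in YPD the 5 calls became 0 without the *snf5Δ* library 1 or the wt library 3, 2 without the *snf5Δ* library 2 or the wt library 2 and 3 without the wt library 1. In YPD+Cys the 1 call became 2 without the wt library 1 and 0 without the wt library 3 or the *snf5Δ* library 1 or 2. Of the fits without a single library, only those without the *snf2Δ* library 3 have a share of all genes beside them. The other counts are not set against a background. The call on *NSR1* was among those lost without wt library 3 or library 1 of the mutant in all 4 comparisons. Without the 3 libraries with over 40% of reads in several places, 3 of the 56 genes fell in *snf5Δ* cells in YPD. Of all 5897 genes then tested, 647 fell. In YPD+Cys 7 of the 56 fell in *snf2Δ* (10.4% of all genes) and 1 in *snf5Δ* cells (9.48%). For *snf2Δ* cells in YPD that fit left 1 *snf2Δ* library, so no count is given. The median log2 fold change of the 56 was -0.71 there.

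Part of the pathway was lower with cysteine in *snf2Δ* cells when libraries of the same number were compared. Libraries with the same number in YPD+Cys and YPD shared deviations within each strain, so the comparison was made within numbers as well as between group means. Between group means, 0 of the 56 genes were called in *snf2Δ*, *snf5Δ* or wt cells by edgeR, with 0 at an unadjusted p under 0.05 in each, and DESeq2 called 0 too. Of all genes 0.591%, 0.834% and 0.226% fell in the 3 strains. Within numbers, 17 of the 56 fell with cysteine in *snf2Δ* cells (30.4%), against 3.02% of all genes, and none rose. In *snf5Δ* cells 0 of 56 passed the test, with 4 at an unadjusted p under 0.05, against 2.03% of all genes that fell. In wt cells 3 fell (5.36%), against 3.13% of all genes.

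None of the 4 box H/ACA genes or the 3 genes of the Mpp10 complex was among the 17, though all of them were below 0. The box H/ACA median was -0.26, against -0.25 over the 56, and *NHP2* just missed the threshold (log2 -0.27, edgeR adjusted p = 0.0608). The Mpp10 median was -0.17. The 17 genes were *NSR1*, *NOP56*, the helicase gene *DBP2*, *UTP4* of UTP-A, *DIP2*, *UTP13* and *UTP21* of UTP-B, the 40S factors *KRR1*, *ENP2*, *RRP5* and *NOC4*, and the 60S factors *NUG1*, *SDA1*, *RLP7*, *NOP2*, *NOP4* and *NIP7*. *DBP2* had the smallest adjusted p, at a log2 fold change of -0.39 ± 0.07 SE (edgeR adjusted p = 0.00159), with 137, 153 and 276 CPM in YPD+Cys, against 175, 199 and 375 CPM in YPD in the libraries of the same numbers. *NSR1* had -0.33 ± 0.08 (adjusted p = 0.0189) and differences of -0.39, -0.24 and -0.36 within the 3 pairs. *NOC4* had the largest change, -0.45 ± 0.10 (adjusted p = 0.0111).

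In wt cells the 3 genes were *NOP56*, *NOP10* and *NIP7*, the last of them a 60S factor. *NIP7* fell by 0.42 ± 0.08 on the log2 scale in wt (edgeR adjusted p = 0.00351) and by 0.41 ± 0.09 in *snf2Δ* cells (adjusted p = 0.00721). *NOP56* fell by 0.28 ± 0.07 in wt (adjusted p = 0.0249) and by 0.31 ± 0.07 in *snf2Δ* cells (adjusted p = 0.0175). These pairs of values lie within a standard error of each other.

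The median of the 56 genes was below 0 in all 9 pairs of same-numbered libraries. It was -0.24, -0.20 and -0.27 in *snf2Δ*, -0.08, -0.03 and -0.10 in *snf5Δ* and -0.29, -0.03 and -0.01 in wt pairs, on the log2(CPM + 1) scale. The *snf2Δ* pairs were alike, whereas in wt cells pair 1 stood apart. Below 0 in all 3 pairs were 46 of the 56 genes in *snf2Δ* cells, against 21.7% of all genes, 16 in *snf5Δ* cells, against 16.5%, and 20 in wt, against 19.8%. Pair 1 of *snf2Δ*, whose libraries had 3.40% of reads in several places in YPD+Cys and 4.72% in YPD, had the median of -0.24, beside -0.20 and -0.27 in pairs 2 and 3, whose YPD libraries had over 40%. The part of such reads in the change with cysteine was not tested.

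Leaving out both libraries of one number cut the 17 calls in *snf2Δ* cells to 4 without number 1, 7 without number 2 and 1 without number 3. The median of the 56 stayed between -0.26 and -0.23. In wt the 3 calls became 1, 1 and 3. The shares of all genes in these reduced fits are not given, so the counts are not set against a background. Whether the response differed between strains was tested as an interaction, and 0 of the 56 genes were called for *snf2Δ* or *snf5Δ* against wt by edgeR between group means (0 at an unadjusted p under 0.05 in each, with 0.0869% and 0.330% of all genes lower in the mutant) or by DESeq2. Within numbers edgeR also called 0 of the 56 (10 and 4 at an unadjusted p under 0.05, with 0.469% and 1.04% of all genes lower). The larger number of calls in *snf2Δ* cells is therefore not shown to be a difference between strains for any gene.

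**Figure D5:**
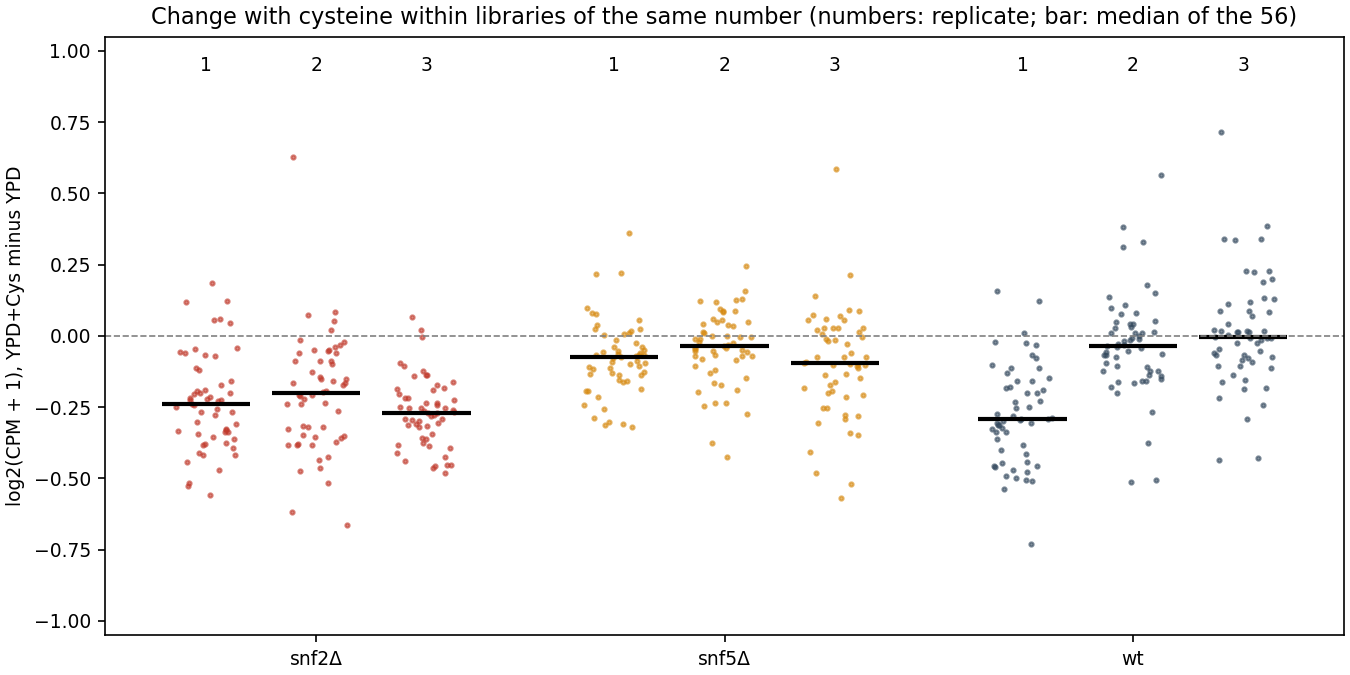
Log2(CPM + 1) in YPD+Cys minus YPD of each of the 56 genes (vertical axis) within libraries of the same number, by strain and number (horizontal axis), with a bar at the median. The bars lie between -0.27 and -0.20 in *snf2Δ* and between -0.29 and -0.01 in wt pairs.

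The 2 mutants were also compared with each other. In *snf5Δ* against *snf2Δ* cells 0 of 56 genes were called in either medium by edgeR or DESeq2, with 0 at an unadjusted p under 0.05 in YPD and 2 in YPD+Cys (*RRP5*, log2 0.50 ± 0.22, and *NHP2*, log2 0.37 ± 0.17). Of all genes 1.68% and 1.37% were higher in *snf5Δ* cells. The log2 fold change was above 0 for 50 of the 56 in YPD, with a median of 0.16, and for 55 in YPD+Cys, with a median of 0.33, against medians of 0.00 over all genes. Single libraries moved these medians, to between 0.01 without the *snf5Δ* library 3 and 0.51 without the *snf2Δ* library 3 in YPD, and to between 0.14 without the *snf2Δ* library 1 and 0.68 without the *snf2Δ* library 3 in YPD+Cys. In YPD 26 of the 56 genes were below 0 without the *snf5Δ* library 3 or without the *snf2Δ* library 1. The comparisons of each mutant with wt share their wt libraries, so the likeness of the 2 mutants was not used as a result.

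Other genes of the pathway were read beside the 56. Of 48 other small subunit factors, 2 fell in *snf2Δ* and 3 in *snf5Δ* cells in YPD, and 3 and 1 in YPD+Cys, with none higher. These are smaller shares than the 11.8%, 15.0%, 11.6% and 11.3% of all genes that fell. *SNU13*, whose protein is the fourth core component of box C/D snoRNPs, had 74.3, 102 and 99.3 CPM in *snf2Δ* and 93.0, 107 and 118 CPM in *snf5Δ* libraries in YPD, against 172, 157 and 202 CPM in wt. It fell by 0.95 ± 0.19 on the log2 scale in *snf2Δ* (edgeR adjusted p = 0.00218) and by 0.75 ± 0.19 in *snf5Δ* cells (adjusted p = 0.0077), and by 0.77 ± 0.19 in *snf2Δ* cells in YPD+Cys (adjusted p = 0.00786). *ESF1*, a processome factor, fell in all 4 comparisons. It had 131, 182 and 197 CPM in *snf2Δ* and 124, 134 and 165 CPM in *snf5Δ* libraries in YPD, against 240.1, 223 and 274 CPM in wt, and its log2 fold changes were -0.53 and -0.81 in YPD and -0.89 and -0.86 in YPD+Cys. *NOP6* fell in *snf5Δ* cells in YPD (log2 -0.57) and *SAS10* in *snf2Δ* cells in YPD+Cys (log2 -0.70).

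Of 45 other large subunit factors, 0 were called in YPD (edgeR, 2 and 1 at an unadjusted p under 0.05 in *snf2Δ* and *snf5Δ* cells) and 0 in *snf5Δ* cells in YPD+Cys (2 unadjusted), and 2 fell in *snf2Δ* cells in YPD+Cys, *NOP7* (log2 -0.67, adjusted p = 0.0463) and *REA1*, the dynein-like ATPase also called *MDN1* (log2 -0.42, adjusted p = 0.0314). These shares too were below those of all genes that fell, 11.8% and 15.0% in YPD and 11.6% and 11.3% in YPD+Cys. Of 16 RNA polymerase I genes, 1 fell in each mutant in YPD, and 2 and 0 in *snf2Δ* and *snf5Δ* cells in YPD+Cys, beside the shares of all genes just given. *RPA43*, a subunit of the polymerase, fell in *snf2Δ* cells in both media (log2 -0.88 and -1.02) and in *snf5Δ* cells in YPD (log2 -0.68), and *RPA135*, its second largest subunit, in *snf2Δ* cells in YPD+Cys (log2 -0.70). *RRN5* rose in *snf2Δ* (log2 0.65) and *UAF30* in *snf5Δ* cells in YPD (log2 0.80), both subunits of the upstream activation factor. Of the 5 regulators, *SFP1*, an activator of the regulon, had 59.1, 51.0 and 45.6 CPM in *snf2Δ* and 55.6, 56.9 and 48.0 CPM in *snf5Δ* libraries in YPD+Cys, against 69.8, 72.2 and 72.9 CPM in wt. It fell there in both mutants (log2 -0.46, edgeR adjusted p = 0.0159, and log2 -0.42, adjusted p = 0.0265). *SCH9* fell in *snf5Δ* cells in YPD (log2 -0.42, adjusted p = 0.00754), and *DOT6*, *TOD6* and *STB3* were not called, with log2 fold changes in *snf2Δ* cells in YPD of 0.44 ± 0.23, 0.31 ± 0.48 and 0.32 ± 0.17. In YPD+Cys these were 0.18 ± 0.23, -0.14 ± 0.46 and 0.22 ± 0.16. In *snf5Δ* cells they were 0.43, 0.39 and 0.40 in YPD and 0.06, 0.23 and 0.19 in YPD+Cys.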

How the data were processed

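Per the labels and the study's methods, the authors made raw counts per gene with STAR 2.7.3a on the sacCer3 genome, after bcl2fastq 2.18, and deposited them. They also deposited TPM values and expected counts from RSEM 1.3.0. The strand setting of the counting is not given in the sources used here, and no gene of the 56 overlaps another annotated gene. The 4 rows that name no gene (14.4% to 78.2% of reads) were left out. Of 7127 identifiers, 6047 matched RefSeq locus tags of R64.

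All 18 libraries were fitted together with edgeR 4.0.16 (R 4.3.3): filterByExpr, TMM, group means, the quasi-likelihood test and Benjamini-Hochberg adjustment over 5757 genes, with calls at adjusted p under 0.05. CPM values use TMM library sizes and errors are standard errors. Intervals are at 95%. On simulated counts for *snf2Δ* against wt in YPD (5757 genes), 79% of 2-fold and 98% of 4-fold changes were recovered, with 7 false calls. Same-numbered YPD and YPD+Cys libraries deviated together within strain (r = 0.224 to 0.787). The pairing rests on this check, and the cysteine comparisons were also fitted with that block. Mutant and wt libraries of the same number did so in part (r = -0.306 to 0.33). For number 1 r was -0.306 to -0.084, for number 2 0.174 to 0.33 and for number 3 -0.006 to 0.184. The main fit held no block there, and a replicate block over all libraries was an alternative.

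The 56 genes and the other lists were chosen with earlier results of these data known. Genes given per library are those with the largest changes among called genes, up to 4 per direction and comparison, those called in both mutants and media, and the highest and lowest TPM of each role. Of the other lists, up to 3 called genes per direction and comparison and all regulators are named. *KRR1*, *SSF1*, *RPF1*, further values of called genes and the genes of the paired fit were added after their values were seen. DESeq2 1.42.0, RLE, totals, no filter, expected counts (rounded) and single libraries left out were alternatives.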

Additional observations from a re-analysis of the deposited data

How the results depend on the processing

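In *snf2Δ* against wt cells in YPD, 7 genes of the 56 fell. The count was 0 with library totals (6.17% of all genes fell), 3 with expected counts, 22 with a replicate block (16.2%) and 0 to 11 without single libraries. Without the 3 libraries with over 40% of reads in several places, 1 *snf2Δ* YPD library was left, assumed to vary like the others, so no count is given. In *snf5Δ* cells in YPD, 5 fell. The count was 3 with RLE, 0 with library totals (6.37% of all genes), 3 with no filter and 1 with expected counts. It was 15 with a replicate block (19.2%), 3 without the 3 libraries (647 of 5897 genes) and 0 to 4 without single libraries. In YPD+Cys the 8 genes of *snf2Δ* became 3 with library totals (6.37% of all genes), 5 with expected counts, 31 with a replicate block (16.4%) and 0 to 22 without single libraries. The 1 gene of *snf5Δ* became 0 with library totals (5.44% of all genes), 9 with a replicate block (16.4%) and 0 to 2 without single libraries. The replicate block gave 3 genes higher in *snf5Δ* than *snf2Δ* in YPD+Cys and 0 in YPD, against 2.54% and 2.87% of all genes. Same-numbered libraries of the 2 mutants correlated at 0.46, 0.066 and 0.568 in YPD+Cys (0.435, 0.082 and 0.551 in YPD), not above 0.1 for number 2. DESeq2 gave 7, 5, 9 and 1 calls. Counts with no share of all genes beside them are not set against a background.

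With cysteine, 0 genes were called in each strain, and a replicate block within strain gave 17 in *snf2Δ*, 3 in wt and 0 in *snf5Δ* cells. Without number 1, 2 or 3, chosen after seeing the data, that block gave 4, 7 and 1 in *snf2Δ* and 1, 1 and 3 in wt cells. No share of all genes is given beside these counts. Without single libraries the counts stayed at 0, as they did for the differences of the response and for *snf5Δ* against *snf2Δ*. The block changed no other call on the cysteine response. The cause of these shifts was not tested. Of 169 alternatives for 13 single-gene results, 107 kept the call, 62 lost it and 0 changed sign. The spread between libraries limits changes of single genes: the median standard error over the 56 was 0.28 on the log2 scale in *snf2Δ* against wt cells in YPD, and that of *NSR1* with cysteine in *snf2Δ* cells was 0.08 with the block within strain.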
